A study of Homo sapiens with 6 samples.

Results

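The chromosome 19 zinc finger genes are the rows of the deposited count table whose symbol is ZNF, a number and at most 1 further letter, and whose exons all lie on chromosome 19. The rule chose 261 of 56303 rows by name and position, and used no measured value. Of these, 140 lie on the plus strand and 121 on the minus strand. GENCODE coding sequences were found for 243, and they encode 1 to 36 zinc fingers, with a median of 12 and the highest number in ZNF208. A KRAB A box, the domain that calls in the repressor, was found in 208 of the 243 and a SCAN domain in 3.

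Zinc finger proteins of the C2H2 kind bind DNA through a row of fingers, each folded around a zinc ion held by a pair of cysteines and a pair of histidines. In most proteins of this family a KRAB domain sits in front of the fingers and recruits TRIM28 (KAP1), which brings SETDB1, HP1 proteins and histone deacetylases and leads to H3K9 methylation. Their best known targets are transposable elements, and their genes arose by tandem duplication, so that chromosome 19 holds them in long clusters of related copies.

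The libraries came from SW480, a human colorectal cancer cell line, infected with lentivirus that carried either a nonsilencing hairpin (shCtrl) or a hairpin against RBM39 (shRBM39), a splicing factor. There were 3 libraries in each group, and all 6 shared the lentiviral infection. According to the study's methods, puromycin was used to select stable clonal lines from the infected cells, and each group had its own replicate experiments. One hairpin is labelled, so the effect of RBM39 loss and that of the hairpin or of the selected line cannot be told apart, and p-values measure the spread between these libraries.

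The finger unit is shown first, because it is the sequence by which these genes are defined and by which their reads can resemble each other. Shown is the coding DNA of the first finger with a linker of the common form, for ZNF93 (chr19:19933478-19933555, plus strand) and ZNF529 (chr19:36547547-36547624, minus strand). These genes had the largest increase and the largest decrease by the rule used below. The build is GRCh38, and capitals mark the codons of the zinc-binding cysteines and histidines.
ZNF93: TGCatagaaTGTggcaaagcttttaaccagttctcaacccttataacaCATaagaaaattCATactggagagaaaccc
ZNF529: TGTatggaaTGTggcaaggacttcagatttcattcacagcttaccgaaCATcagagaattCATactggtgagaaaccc
The pair matched at 54 of 78 bases (69.2%). Part of this match was set in advance, since the search pattern required the cysteines, the histidines and the linker. Exact copies of long stretches were few: in 216 of the 261 members under 1% of the exon 100-mers also occurred elsewhere on the assembled chromosomes. Reads could be shared by position instead, since 86 members overlapped an exon of another row on the same strand and 80 on the opposite strand. How the authors' counting treated such reads is not given in the sources used here.

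Library totals were 18042924 to 20428901 counts, of which the members took 0.139% to 0.161%. RBM39 itself was lower in shRBM39 by 0.67 on the log2 scale (edgeR adjusted p = 1.24e-16), with 435 to 448 CPM (counts scaled to library size) in shCtrl and 266 to 292 CPM in shRBM39. Of 6 colon epithelium markers, 2 were called higher (KRT8 and KRT18) and 3 lower (CDH1, CDX2 and VIL1). The 6 summed to 10899 to 11655 CPM in shCtrl and 13888 to 14419 CPM in shRBM39, most of it from KRT8 and KRT18. CDX2 went from 21.3 to 22.4 CPM down to 4.65 to 5.56 CPM. Markers of 3 other cell types were low. The 3 leukocyte markers summed to 15.3 to 17.4 CPM over all libraries, nearly all of it CD68, and PTPRC was at 0. The 3 fibroblast markers went from 5.66 CPM in each shCtrl library to 8.31 to 10.7 CPM, and the 3 endothelial markers from 3.48 to 4.58 CPM up to 6.46 to 7.97 CPM, with at most 3 counts in a library for COL3A1, DCN and CDH5. Their part in the results was not tested.

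Most members were expressed at low levels. Of the 261, 188 passed the filter on low counts and were tested, and 73 did not. Among the 73, 20 had 0 counts in every library and the other 53 had at most 15 counts in any library. The tested members had a median of 5.46 CPM, against 11.9 CPM over all tested genes, and only 10 reached 20 CPM. The members with the highest level per length were ZNF146, with an RPKM (read count scaled to exon length and library size) of 28.3, ZNF428 with 20.9, ZNF787 with 14.5, ZNF580 with 12 and ZNF581 with 9.3. No KRAB A box was found in any of these 5, while the median tested member stood at 1.02 RPKM.

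Summed over all 261 members, shCtrl reached 1503.2, 1536.8 and 1535.2 CPM, and shRBM39 reached 1487.6, 1459.3 and 1506.8 CPM. The groups overlapped, and the means differed by -2.66%.

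Single members changed in both directions after knockdown of RBM39. By edgeR's quasi-likelihood test at an adjusted p under 0.05, 30 members were higher in shRBM39 and 44 were lower. That is 74 of 188 (39.4%), where 59.1% of all 18243 tested genes were called, 29.2% as higher and 29.9% as lower. The median log2 fold change was -0.04 for the members and -0.01 for all tested genes. Scaling by library totals alone moved the median of all genes to -0.14 and the split of the members to 21 higher and 70 lower, so the balance between directions is relative to the scaling.

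Most called changes were small. Of the 74 called members, 54 differed by under 1.5-fold, as did 7199 of the 10790 called genes of the whole table. As shares of the tested genes, these are 28.7% of the members and 39.5% of all genes, which also reflects that fewer members were called. With a difference of at least 2-fold, 4 members were called (2.13%), against 6.52% of all tested genes. No overlap between shCtrl and shRBM39 was seen in 33 members that were higher and 55 that were lower, out of 188, against 63.3% of all tested genes. Of the 74 called members, 71 were free of overlap.

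The share called rose with the level, and was read at matched levels for that reason. Between 1 and 5 CPM, 27 of 77 members were called (35.1%), against 43.4% of all genes at that level. Between 5 and 20 CPM, 38 of 90 were called (42.2%), against 59.4% of all genes. The members below 1 CPM and at 20 CPM or more were few, with 2 of 11 called (29.5% of all genes at that level) and 7 of 10 called (76.5%). On the other chromosomes, 296 rows had symbols of the same form, of which 230 were tested, 43 called higher and 91 lower (58.3%), with a median log2 fold change of -0.12 and a median level of 11 CPM. The other 2627 rows of chromosome 19 had 332 higher and 301 lower of 1085 tested (58.3%), with a median of 0.00. These shares are descriptions, and their difference from that of the members was not tested.

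**Figure D1:**
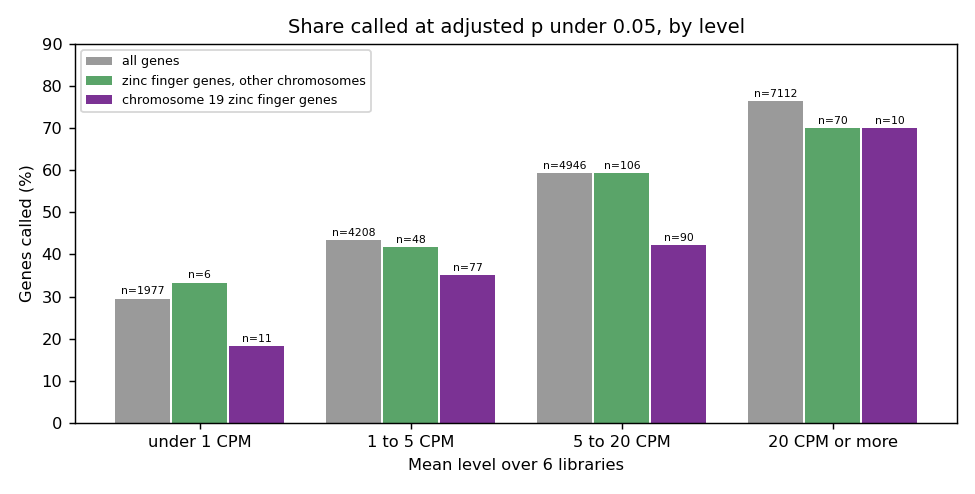
Bars give the percentage of tested genes called at an adjusted p under 0.05 (y axis, from 0) in 4 classes of mean CPM over the 6 libraries (x axis), for all genes, zinc finger genes of the same symbol form on other chromosomes, and the chromosome 19 members, with the number tested above each bar. Between 5 and 20 CPM the bar of the members stands at 42.2%, and those of both other sets at 59.4%.

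Along the chromosome the members fall into 17 clusters when a gap of over 1 Mb starts a new one, and 6 clusters with at least 20 members hold 222 of the 261. The counts in each direction varied between clusters, a variation that was not tested. Cluster 6 (19668796 to 24129961, GRCh38) had the most increases, with 11 of its 20 tested members higher, 3 lower and a median log2 fold change of 0.39. Its share called was 70%, where 59.1% of all tested genes were called, 29.2% as higher and 29.9% as lower. Between 8 and 11 of its members were called higher under every alternative setting tried. Over the members outside it, 19 were higher and 41 lower of 168 tested, with a median of -0.07.

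Cluster 10 (36182060 to 37817300) had 1 member higher and 7 lower of 21 tested, with a median of -0.23. Cluster 16 (51571298 to 53580269) had 1 higher and 2 lower of 31 (9.68% called), the lowest share among the 6 large clusters. In cluster 17 (55476332 to 58481230), the largest, 6 were higher and 15 lower of 44 tested. Cluster 3 (11483427 to 12640098) had 2 higher and 3 lower of 21, and cluster 13 (43525497 to 45076588) had 4 higher and 5 lower of 21. The shares called in clusters 3, 10, 13 and 17 were 23.8%, 38.1%, 42.9% and 47.7%. All lay under the 59.1% of all tested genes, of which 29.2% were higher and 29.9% lower. These shares were not matched for level. The medians of clusters 3, 13, 16 and 17 lay between -0.05 and 0.02.

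**Figure D2:**
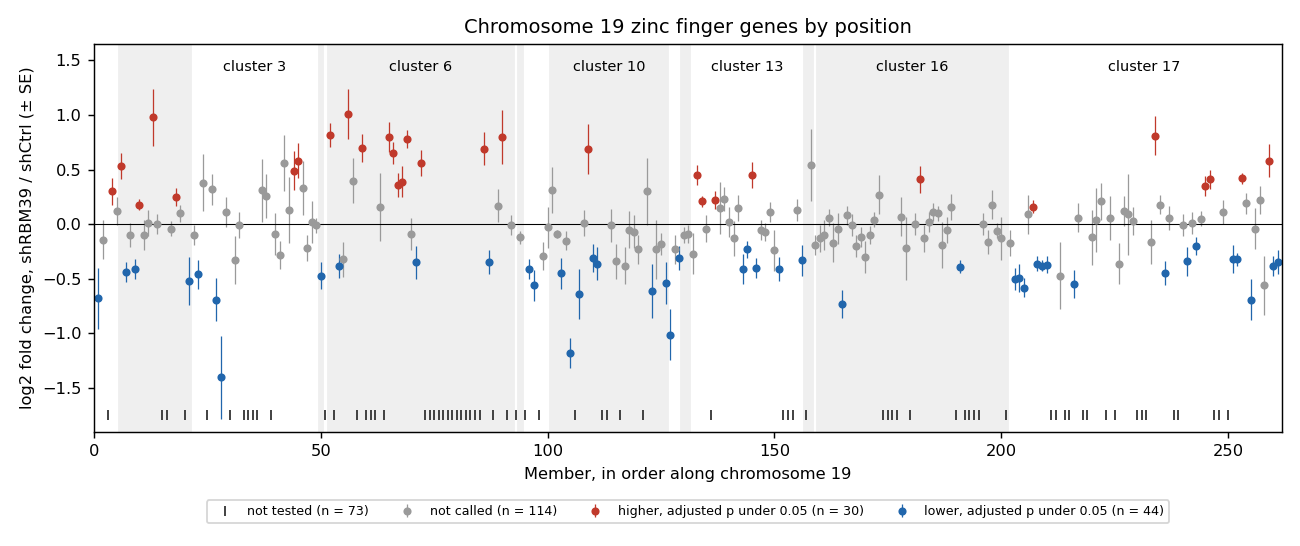
Each point is 1 of the 188 tested members, placed by its order along chromosome 19 (x axis) at its log2 fold change of shRBM39 over shCtrl (y axis), with a bar of 1 SE either side. Red points were called higher, blue points lower and grey points neither, ticks at the bottom mark the 73 members that were not tested, and shading parts neighbouring clusters, of which the 6 with at least 20 members are numbered. Cluster 6 holds 11 of the 30 red points, the most of any cluster, and 19 lie outside it. The ticks of 13 untested members form an unbroken run in cluster 6.

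Cluster 6 has 41 members, more than any but clusters 16 and 17, and it held both the longest run of members called in one direction and the longest silent run. The 5 neighbours from ZNF430 to ZNF738 (ZNF430, ZNF714, ZNF431, ZNF708 and ZNF738) were all higher in shRBM39. The 13 neighbours from ZNF43 to ZNF730 (21804949 to 23147219), which include ZNF208, had at most 1 count in any library. Together, 21 members of this cluster were not tested and 9 of them were at 0 in all 6 libraries. In the same span lie 165 rows that are no members, of which 14 were tested, 5 called higher and 1 lower, with a median of -0.01.

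Near the start of cluster 6, ZNF101 had 4.57, 4.80 and 5.36 CPM in shCtrl and 9.34, 8.31 and 8.36 CPM in shRBM39, a log2 fold change of 0.82 (SE 0.11, adjusted p = 8.12e-08). ZNF93, whose protein is known to bind and repress LINE-1 elements, went from 1.24, 0.801 and 1.08 CPM to 1.94, 2.15 and 2.22 CPM, a log2 fold change of 1.01 (SE 0.23, adjusted p = 0.000232). For both genes all 3 shRBM39 libraries lay above all shCtrl libraries.

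ZNF738 had the smallest adjusted p among the increases named here. Its levels were 11.6, 11.0 and 10.9 CPM in shCtrl and 18.4, 20.7 and 18.5 CPM in shRBM39, a log2 fold change of 0.78 (SE 0.08, adjusted p = 1.05e-10). ZNF430 went from 3.87, 2.69 and 3.74 CPM to 6.13, 5.40 and 6.25 CPM (log2 fold change 0.80, SE 0.14, adjusted p = 7.93e-06). ZNF486 went from 4.71, 3.53 and 4.28 CPM to 6.18, 7.03 and 7.18 CPM (log2 fold change 0.70, SE 0.13, adjusted p = 1.27e-05). These groups did not overlap either, and no exon 100-mer of ZNF738, ZNF430 or ZNF486 was found in another gene.

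A pair of further increases in the cluster had a limit each. ZNF681 had 1.14, 1.04 and 1.03 CPM in shCtrl and 2.35, 1.16 and 2.01 CPM in shRBM39 (log2 fold change 0.80, SE 0.25, adjusted p = 0.00578). Its call rested on 1 library, since without shRBM39 replicate 1 the log2 fold change was 0.59 with an edgeR adjusted p of 0.0715. ZNF724P, a pseudogene by its symbol, rose from 2.23, 2.73 and 3.20 CPM to 4.49, 4.53 and 4.18 CPM (log2 fold change 0.69, SE 0.15, adjusted p = 0.000197), but 42.2% of its exon 100-mers also belong to the overlapping row RP11-15H20.8, so its reads are uncertain.

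By choice made after their values were seen, the remaining called members of the cluster are named here. ZNF714, ZNF431 and ZNF100 were higher by 0.65, 0.36 and 0.56 on the log2 scale, with edgeR adjusted p of 1.5e-06, 0.00708 and 0.000135. ZNF506 and ZNF429 were lower, with log2 fold changes of -0.38 and -0.35 and adjusted p of 0.00262 and 0.0429. ZNF708 is described with its splicing record further on.

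ZNF91, the repressor of SVA elements, went against the direction of most of its cluster. It had 7.15, 9 and 8.61 CPM in shCtrl and 6.13, 6.74 and 6.56 CPM in shRBM39, a log2 fold change of -0.35 (SE 0.11, adjusted p = 0.00542). The groups were separate, and no alternative setting ended the call. ZNF91 and ZNF93 thus had opposite signs.

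**Figure D3:**
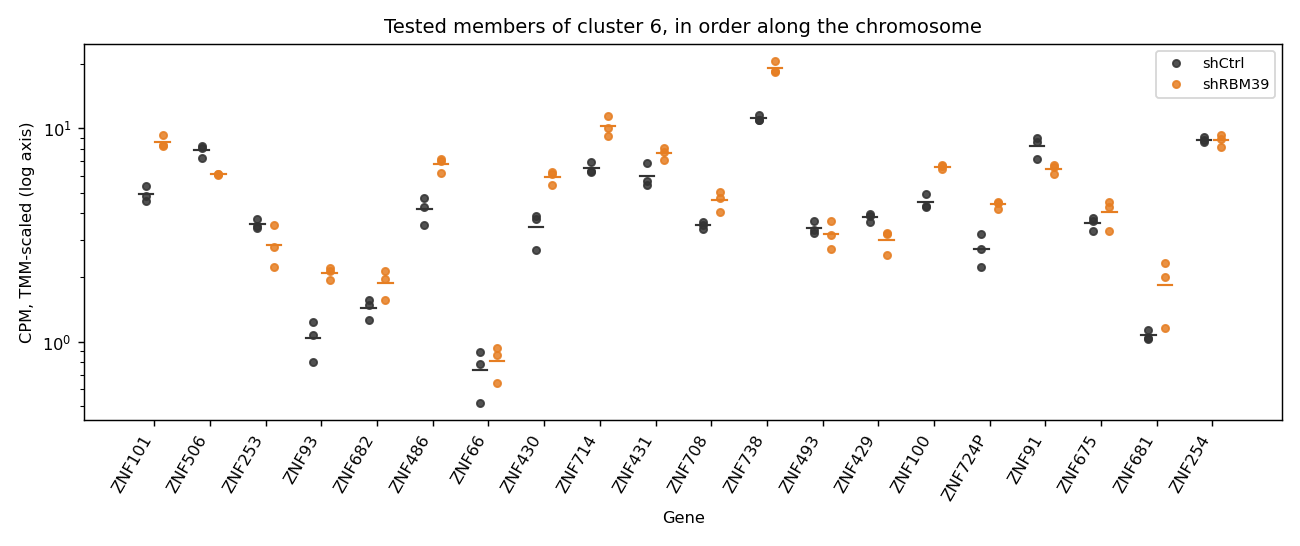
Each of the 20 tested members of cluster 6, in order along the chromosome (x axis), is shown with its CPM on a log axis (y axis). Points are the 3 libraries of shCtrl (dark) and of shRBM39 (orange), and bars are group means; ZNF738 has the highest level, at 18.4 to 20.7 CPM in shRBM39, and ZNF506, ZNF429 and ZNF91 are the 3 that were called lower.

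Of the 10 largest increases, 3 lay outside cluster 6. ZNF530 had 1.89, 2.26 and 2.21 CPM in shCtrl and 4.54, 2.79 and 3.72 CPM in shRBM39 (log2 fold change 0.81, SE 0.18, adjusted p = 0.000208), with the shRBM39 libraries apart from each other but all above shCtrl. ZNF177 went from 1.04, 1.18 and 0.689 CPM to 1.43, 1.68 and 2.63 CPM (log2 fold change 0.98, SE 0.26, adjusted p = 0.00147). Since 90.5% of its exon 100-mers belong to the read-through row ZNF559-ZNF177 as well, the counts of ZNF177 may cover only part of its reads. ZNF850 went from 1.19, 1.08 and 1.08 CPM to 2.09, 1.39 and 1.91 CPM (log2 fold change 0.69, SE 0.23, adjusted p = 0.0099), and without shRBM39 replicate 1 its edgeR adjusted p was 0.063. Its call also ended under DESeq2 and, like that of ZNF681, at both RPKM pseudocounts.

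The largest decrease was that of ZNF529 in cluster 10. Its levels were 5.41, 6.22 and 6 CPM in shCtrl and 2.60, 2.79 and 2.43 CPM in shRBM39, a log2 fold change of -1.18 (SE 0.14, adjusted p = 5.72e-09). ZNF546 had 2.18, 1.70 and 2.26 CPM in shCtrl and 0.868, 0.988 and 1.19 CPM in shRBM39 (log2 fold change -1.01, SE 0.23, adjusted p = 0.000331). In both, the highest shRBM39 library lay well below the lowest shCtrl library, and both encode a KRAB A box. ZNF491, at a mean of 0.557 CPM, had a log2 fold change of -1.40 with an adjusted p of 0.00173, below the level at which genes were named by the rule.

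ZNF615 went from 6.40, 6.17 and 6.45 CPM to 3.42, 4.36 and 3.77 CPM, a log2 fold change of -0.73 (SE 0.13, adjusted p = 7.65e-06). It was the largest decrease in cluster 16, where nearly all other members were not called. ZNF865, which has 20 fingers and no KRAB A box, went from 11.4, 13.6 and 13.1 CPM to 9.24, 8.54 and 7.59 CPM (log2 fold change -0.58, SE 0.09, adjusted p = 2.2e-06). ZNF470 went from 5.90, 5.79 and 7.23 CPM to 4.19, 3.60 and 5.06 CPM (log2 fold change -0.55, SE 0.13, adjusted p = 0.000597). The groups were separate in all 3 genes.

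ZNF181 had 4.86, 6.92 and 5.61 CPM in shCtrl and 4.70, 3.49 and 3.56 CPM in shRBM39 (log2 fold change -0.56, SE 0.14, adjusted p = 0.00102), a narrow gap between the closest libraries. ZNF441 went from 2.63, 2.21 and 2.51 CPM to 1.89, 1.45 and 1.19 CPM (log2 fold change -0.69, SE 0.20, adjusted p = 0.00372). ZNF497 went from 3.03, 2.87 and 2.36 CPM to 1.89, 1.28 and 1.91 CPM (log2 fold change -0.69, SE 0.19, adjusted p = 0.00256). Of the exon 100-mers of ZNF497, 35.1% belong to other rows too, among them A1BG-AS1, which leaves its reads uncertain.

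The 2 weakest of the 10 named decreases lost their calls when some single libraries were left out. Their log2 fold changes then stayed between -0.74 and -0.49 for ZNF461 and between -0.77 and -0.46 for ZNF571. ZNF461 had 1.69, 2.26 and 1.72 CPM in shCtrl and 1.02, 1.39 and 1.24 CPM in shRBM39 (log2 fold change -0.64, SE 0.23, adjusted p = 0.0144). Its adjusted p was 0.101 without shCtrl replicate 2 and 0.0742 without shRBM39 replicate 1, by edgeR. ZNF571 had 1.14, 1.60 and 1.82 CPM in shCtrl and 1.02, 0.93 and 1.03 CPM in shRBM39 (log2 fold change -0.61, SE 0.25, adjusted p = 0.035), and its call was lost when any library except shCtrl replicate 1 was left out, with adjusted p from 0.065 to 0.178. Both calls also ended under DESeq2.

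**Figure D4:**
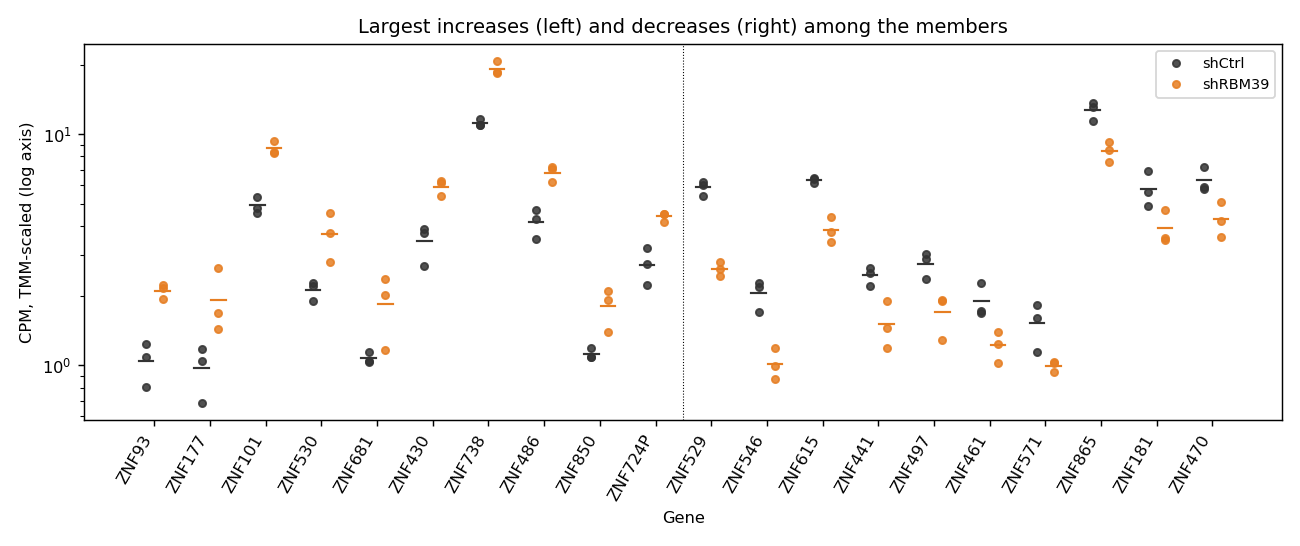
The 10 largest increases (left of the dotted line) and 10 largest decreases (right) among called members of at least 1 CPM whose groups did not overlap are shown with their CPM on a log axis (y axis). Points are the 3 libraries of shCtrl (dark) and of shRBM39 (orange), and bars are group means; ZNF738 and ZNF865 exceed 10 CPM in shCtrl, and most of the others lie between 1 and 7 CPM.

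Of the members named above for the highest level per length, only ZNF146 was not called in the main fit. ZNF787, ZNF581, ZNF580 and ZNF428 were called, each with a difference under 1.5-fold. Of all genes, 76.5% were called at 20 CPM or more and 59.4% between 5 and 20 CPM, the level of ZNF581. ZNF146, which is made almost wholly of fingers, had 118, 124 and 122 CPM in shCtrl and 108, 110 and 122 CPM in shRBM39 (log2 fold change -0.09, SE 0.04, adjusted p = 0.0611). The groups overlapped through shRBM39 replicate 3, without which ZNF146 was called. It was called under 8 of the 17 alternatives, among them upper-quartile scaling and the correction for GC content and length. ZNF787 was lower by a clear margin, with 60.4, 59.8 and 59.7 CPM in shCtrl and 45.7, 49.4 and 43.7 CPM in shRBM39 (log2 fold change -0.38, SE 0.05, adjusted p = 2.62e-08).

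ZNF580 and ZNF581, neighbours on the plus strand whose exons overlap, had opposite signs. ZNF581 went from 18.0, 18.0 and 18.4 CPM to 13.4, 15.1 and 13.9 CPM (log2 fold change -0.36, SE 0.07, adjusted p = 7.27e-05). ZNF580 went from 29.4, 32.9 and 29.3 CPM to 33.2, 36.6 and 33.1 CPM (log2 fold change 0.16, SE 0.06, adjusted p = 0.0154), and its call ended without shCtrl replicate 1, shCtrl replicate 3 or shRBM39 replicate 2, with edgeR adjusted p of 0.0618, 0.0656 and 0.112. ZNF428, of which 28.4% of the exon 100-mers lie in SRRM5 on the opposite strand, went from 34.4, 35.6 and 34.9 CPM to 39.4, 38.8 and 43.0 CPM (log2 fold change 0.21, SE 0.05, adjusted p = 0.000946). The calls of ZNF580 and ZNF428 also ended under library totals alone and at both RPKM pseudocounts, with values down to 0.04 and 0.08, and that of ZNF580 ended with the correction for GC content and length.

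Several members have a known role in silencing or in cancer. ZNF274 recruits SETDB1 to the 3' ends of zinc finger genes themselves. It had 26.2, 28.5 and 26.2 CPM in shCtrl and 22.2, 21.7 and 20.8 CPM in shRBM39 (log2 fold change -0.32, SE 0.06, adjusted p = 3.38e-05), with no overlap. ZNF224, a transcriptional repressor, went from 15.4, 16.9 and 16.6 CPM to 14.4, 12.6 and 14.6 CPM (log2 fold change -0.23, SE 0.08, adjusted p = 0.0108). Its call ended under DESeq2, without shRBM39 replicate 2 its edgeR adjusted p was 0.0914, and 42.6% of its exon 100-mers also lie in AC084219.4 on the opposite strand.

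ZNF350 (ZBRK1), a partner of BRCA1, had 5.11, 5.28 and 3.69 CPM in shCtrl and 4.08, 4.82 and 4.80 CPM in shRBM39 (log2 fold change -0.04, SE 0.14, adjusted p = 0.806). ZNF420 (APAK), a regulator of p53, had 3.62, 3.30 and 4.43 CPM against 3.47, 4.18 and 3.67 CPM, a log2 fold change of -0.01 (SE 0.15, adjusted p = 0.972). Both sets of libraries overlapped.

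ZNF331, ZNF582, ZNF667 and ZNF671, whose promoters are known to be methylated in several cancers, were not tested, and neither was ZNF304. ZNF582 had 0 counts in every library. ZNF331 had 1 count in shCtrl replicate 1, and ZNF304 and ZNF667 each had 1 count in shRBM39 replicate 3. ZNF671 had 4, 3 and 4 counts in shCtrl and 2, 1 and 2 counts in shRBM39.

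Features of the proteins and exons were compared with the changes. Members with a KRAB A box had 26 higher and 31 lower of 153 tested (37.3%), with a median log2 fold change of -0.01. The 35 members without one had 3 higher and 13 lower of 30 tested (53.3%), with a median of -0.16. Their median level was 10 CPM, against 5.3 CPM for members with the box, and 59.4% of all genes between 5 and 20 CPM were called. All 3 SCAN members were lower, against 29.9% of all tested genes. Their median level was 15 CPM, and 3 genes are too few to describe the class. Within cluster 6, 10 of 19 tested members with a KRAB A box were higher and 3 lower. Of 134 elsewhere, 16 were higher and 28 lower, where 29.2% of all tested genes were higher and 29.9% lower. Cluster 6 was singled out by its increases, so this contrast is in part set by that choice.

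By number of fingers, members with 1 to 8 had 6 higher and 13 lower of 40 tested, and those with 9 to 12 had 11 higher and 14 lower of 58. Members with 13 to 16 fingers had 10 higher and 7 lower of 48, and those with 17 or more had 2 higher and 10 lower of 37. The shares called in these 4 classes, 32.4% to 47.5%, all lay below the 59.1% of all tested genes. The classes had median levels of 4.54 to 6.38 CPM. At such levels fewer genes were called, with 43.4% of all genes between 1 and 5 CPM and 59.4% between 5 and 20 CPM. Spearman's rho between a feature and the log2 fold change was -0.07 for exon GC content, -0.02 for exon length, 0.08 for the share of exon 100-mers in other genes and -0.01 for mean CPM over the 188 tested members, and -0.09 for the number of fingers over 183. These are correlations across genes that share libraries and in part sequence, and are given as a description. Of the 184 members with under 5% of their exon 100-mers in another gene, 131 were tested and 51 called (38.9%), a share close to that of all tested members.

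Promoters, taken as 250 bases before to 50 bases after the start in RefSeq's table, were found for 213 members. They held a median of 20 CG dinucleotides, against 12 over the 27305 promoters of the table. The median was 20 for the 161 members that passed the filter and 17 for the 52 that did not, 14 for 27 members called higher and 20 for 40 called lower.

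The genes through which KRAB proteins act were compared next. Of 12 cofactor genes, all above 20 CPM, 8 were called higher and 1 lower (75% called). Of all genes at 20 CPM or more, 76.5% were called and 44.6% were called higher, so the share called among the cofactors was near that background. TRIM28, the protein that the KRAB domain binds, had 170, 167 and 168 CPM in shCtrl and 201, 200 and 193 CPM in shRBM39 (log2 fold change 0.23, SE 0.04, adjusted p = 1.71e-06). SETDB1, the H3K9 methyltransferase it recruits, had 35.8, 38.1 and 36.1 CPM against 35.0, 38.3 and 35.0 CPM (log2 fold change -0.03, SE 0.05, adjusted p = 0.68). Only under library totals alone was SETDB1 called. ATF7IP, the partner that stabilises SETDB1, was lower by 0.21 (SE 0.04, adjusted p = 0.000141), a call that ended only under the correction for GC content and length with the replicate block.

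All 3 HP1 genes, whose proteins read H3K9 methylation, were higher with no overlap. CBX1 went from 259, 263 and 264 CPM to 443, 442 and 451 CPM (log2 fold change 0.76, SE 0.04, adjusted p = 5.34e-19). CBX5 and CBX3 had log2 fold changes of 0.62 and 0.55 (both SE 0.04, adjusted p = 3.29e-16 and 6.66e-13). DNMT1, the maintenance DNA methyltransferase, was higher by 0.47, with an adjusted p of 3.14e-13. UHRF1, which guides DNMT1 to newly copied DNA, had the largest change of the list, from 141, 145 and 138 CPM to 398, 378 and 376 CPM (log2 fold change 1.44, SE 0.04, adjusted p = 1.77e-25).

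The deacetylase and remodeller subunits moved less. HDAC1 was higher by 0.19 (SE 0.04, adjusted p = 3.39e-05), a call that ended under library totals alone and at both RPKM pseudocounts, with values down to 0.07. HDAC2 was called at 0.11 (adjusted p = 0.015), but its sign turned to -0.01 under library totals alone and on the RPKM scale, and its edgeR adjusted p was 0.129 without shRBM39 replicate 3. CHD3 had a log2 fold change of -0.06 and CHD4 of 0.08, with adjusted p of 0.173 and 0.0535. CHD3 was called under upper-quartile scaling, library totals alone and at both RPKM pseudocounts. CHD4 was called under 5 of the 17 alternatives, among them DESeq2 and the correction for GC content and length.

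**Figure D5:**
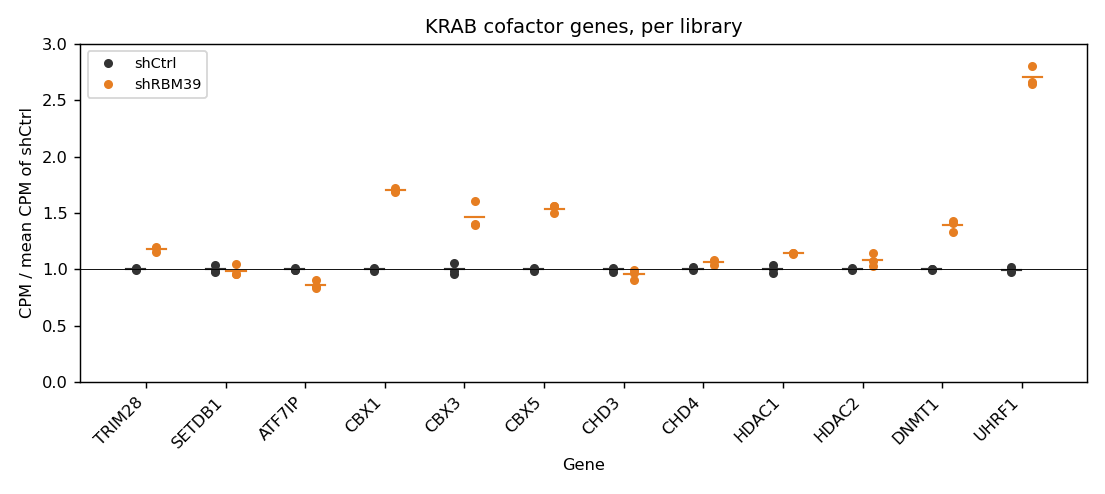
The level of 12 KRAB cofactor genes (x axis) is plotted as CPM divided by the mean CPM of shCtrl (y axis, from 0), with 1 point per library, shCtrl dark and shRBM39 orange, and bars for group means. UHRF1 reaches 2.71 times the shCtrl mean and CBX1 1.70 times, and ATF7IP lies at 0.865 times.

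Other C2H2 genes of chromosome 19 that carry other symbols gave few values. Of 13 such rows, 5 were tested. ZSCAN5A had 2.28, 2.5 and 2.46 CPM in shCtrl and 3.68, 3.14 and 2.79 CPM in shRBM39 (log2 fold change 0.41, SE 0.17, adjusted p = 0.0346), a call that was lost when any library except shRBM39 replicate 3 was left out, with edgeR adjusted p from 0.0526 to 0.183, and under DESeq2, other scalings and both RPKM pseudocounts. ZFP14, ZFP28, ZFP30 and ZSCAN22 had log2 fold changes from -0.18 to 0.07 and were not called. ZIM2, ZIM3, PEG3, ZSCAN1, ZSCAN4 and ZSCAN18 had 0 counts in all libraries, ZFP82 had 1 count in all and ZIK1 at most 7 in a library.

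The deposited splicing table, whose 1582 records the authors had selected, held 12 records in 11 member genes, 11 of a skipped exon and 1 of mutually exclusive exons. Its libraries are listed as group 1 and group 2 with no key, so no record is tied here to shRBM39 or shCtrl, and the levels are a description without a test. Inclusion levels were recomputed from the reads and the effective lengths. Group 1 was lower in 7 records and higher in 5, and the groups did not overlap in 4. In 9 records at least 1 library had fewer than 10 reads.

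Only ZNF317 had at least 20 reads in every library. Its skipped exon is exon 5 of 7 of the GENCODE canonical transcript, 96 bases long and coding throughout, so that leaving it out keeps the reading frame. It is shown with the last intron bases before it and the first after it in capitals (chr19:9157978-9158077, plus strand, GRCh38).
ZNF317: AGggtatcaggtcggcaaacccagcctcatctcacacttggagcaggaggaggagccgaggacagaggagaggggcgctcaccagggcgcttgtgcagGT
Group 1 had 44, 39 and 51 inclusion reads and 15, 14 and 8 skipping reads, which gives levels of 0.628, 0.616 and 0.786. Group 2 had 46, 50 and 70 inclusion reads and 2, 3 and 5 skipping reads, with levels of 0.930, 0.906 and 0.890. The groups did not overlap and their means were 0.676 ± 0.095 and 0.908 ± 0.020 (SD, n = 3). The gene's level in shRBM39 was higher by 0.18 on the log2 scale (SE 0.05, adjusted p = 0.00279), with 37.0 to 39.9 CPM in shCtrl and 41.0 to 44.9 CPM in shRBM39. This call ended under library totals alone and at both RPKM pseudocounts, with values down to 0.05.

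The other records rest on few reads. ZNF266 (exon 10 of 11, 89 bases) had 13 to 27 reads in a library and overlapping groups, at 0.766, 0.572 and 0.842 for group 1 against 1, 1 and 0.820 for group 2. The mutually exclusive exons of ZNF561, with 12 to 17 reads, had levels of 0.722, 1 and 0.717 against 0.555, 0.438 and 0.609 for the form counted as inclusion, without overlap. Which exon that form holds was not checked. The skipped exon holds the KRAB A box in 4 records, those of ZNF28, ZNF551, ZNF708 and ZNF805, each with as few as 1 to 4 reads in a library. For ZNF551, group 1 had levels of 1, 0.822 and 0.754 and group 2 of 0.339, 0.719 and 0.561, and those of the other 3 overlapped between the groups.

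ZNF91 had a record of a 96-base exon with 5 to 14 reads in a library, and ZNF30, ZNF44 and both records of ZNF211 had libraries with 1 to 3 reads. At gene level, ZNF211 was lower by 0.45 (SE 0.11, adjusted p = 0.000625), ZNF561 was higher by 0.25 (SE 0.08, adjusted p = 0.00873), and ZNF708 was higher by 0.39 (SE 0.14, adjusted p = 0.0151), with an edgeR adjusted p of 0.0783 without shRBM39 replicate 3. The calls of ZNF561 and ZNF708 ended under library totals alone and at both RPKM pseudocounts, with values down to 0.08 and 0.12, and that of ZNF708 also under DESeq2. ZNF28, ZNF30, ZNF44, ZNF266, ZNF551 and ZNF805 were not called, with log2 fold changes from -0.29 to 0.06. ZNF30 was called under 7 of the 17 alternatives and ZNF44 under 6. Counting ZNF317 and ZNF91, 5 of the 11 genes were called at gene level in the main fit, where 59.1% of all tested genes were called.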

How the data were processed

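Libraries were made from total RNA with a stranded mRNA kit, and reads carried unique identifiers according to the study's methods. The submitters' processing notes name Trimmomatic 0.36, STAR 2.5.3a, featureCounts, Subread 1.5.1, edgeR 3.12.1 and GRCh38. The annotation release, the strand setting, the treatment of reads that map to several places and the collapsing of identifiers are not given in the sources used here, and each could change the counts of overlapping or related genes. The authors deposited raw counts per gene, RPKM values computed from them, and rMATS splicing records with read numbers per library; the authors' own p-values, FDR values and differences in those records were not used. The deposited event summary was not used.

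Counts were analysed in R 4.3.3 with edgeR 4.0.16 (filterByExpr, TMM scaling, quasi-likelihood test, Benjamini-Hochberg adjustment over all 18243 tested genes, threshold 0.05). CPM are TMM-scaled, and RPKM printed here were recomputed from the counts. Fold changes are shRBM39 over shCtrl. limma 3.58.1 and DESeq2 1.42.0 served as alternatives, and limma was run on log2 of the authors' deposited RPKM plus a pseudocount of 1 or 0.1. The main edgeR fit, DESeq2 and the correction for GC content and length were tested on simulated counts. The other alternatives were not. Replicates differed by more than sampling noise (chi-square per degree of freedom 2.12 to 4.25), with a biological coefficient of variation of 0.035. Clusters, the 100-mer search and the protein domains used the GRCh38 sequence and GENCODE v44, in which 256 of the 261 symbols were found. Fingers, KRAB A boxes and SCAN domains were found by pattern search in the translated canonical transcripts.

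Named were the 10 largest increases and 10 largest decreases among called members with at least 1 CPM and no overlap, the 5 highest by RPKM, 12 fixed members, members with a splicing record, 12 cofactors, 14 other C2H2 genes and RBM39. Of the 14 other C2H2 symbols, 13 had a row in the counts, and ZFP112 had none. The members and lists were chosen with earlier results of these data known. Alternatives were other scalings, filters, tests, thresholds and offsets, and leaving out each library.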

Additional observations from a re-analysis of the deposited data

How the results depend on the processing

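The number of members called stayed within 1.5 times of 74 under all 17 alternatives, and 63 to 68 were called when 1 library was left out (27 to 29 higher, 36 to 40 lower). Higher calls numbered 17 and 16 on log2(RPKM + 1) and log2(RPKM + 0.1), and lower calls 29 under DESeq2, 29 at an adjusted p under 0.01 and 70 under library totals alone. The median log2 fold change of the members was -0.17 under library totals alone and -0.15 on log2(RPKM + 0.1), where the median of all genes was -0.14 and -0.13, and it was -0.08 to -0.02 with 1 library left out. In cluster 6 the median was 0.27 under library totals alone, 0.18 without the filter (more genes tested), 0.10 and 0.22 on log2(RPKM + 1) and log2(RPKM + 0.1), 0.43 with the correction for GC content and length (also with the replicate block), and 0.35 to 0.49 with 1 library left out. The summed level differed by -10.67% under library totals alone. HDAC2 turned to -0.01 under library totals alone and at both RPKM pseudocounts. The deposited RPKM match the counts scaled by library totals, so both RPKM settings carry that scaling. At a median of 1.02 RPKM over the tested members, an added pseudocount also shrinks log2 fold changes. Apart from the scaling, the pseudocount and the filter, the cause of these shifts was not tested.

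The replicate numbers did not pair the libraries: deviations of same-numbered libraries correlated at 0.006, -0.028 and 0. With the number as a replicate block, 75 members were called, 30 higher and 45 lower. Of 42 named genes called, 28 kept their call under all 17 alternatives. Most members have few counts, which limits what could be detected.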
